A study of Homo sapiens with 3 samples.

Results

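The genes described here build the machinery that copies chromosomal DNA: the origin recognition complex (ORC), the licensing factors, the MCM helicase, GINS, the replicative DNA polymerases, the clamp loader RFC, the clamp PCNA and the enzymes that join Okazaki fragments. They were taken by symbol, as every gene whose name in the count tables begins with MCM, ORC, GINS, RFC, POLA, POLD or POLE followed by a digit, with PCNA, CDC6, CDT1, CDC45, GMNN, FEN1 and LIG1 added. This gave 41 genes of 22825. No measured value entered the choice. The rule leaves out the catalytic subunit of polymerase epsilon (POLE) and the primase subunits (PRIM1 and PRIM2), which are given beside their complexes.

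RNA was sequenced from MDA-MB-231, an established human triple-negative breast cancer cell line that expresses mutant p53. The 3 libraries (n = 3) form 1 group: cells given a control siRNA at 50 nM in 2 transfections with 24 h between them, and collected 48 h later. All 3 are labelled biological replicates, and with no second group here, the study's p53 siRNA arm being not analysed here, neither an effect of p53 nor one of transfection itself can be measured. The values below are therefore levels of the transfected line, the ratios between genes within a library, and the spread between 3 libraries. Replicates 1, 2 and 3 held 68645361, 84857136 and 54497019 counts over all genes. VIM, the mesenchymal filament gene for which the line is known, was at 4523 ± 158 TPM (a count divided by transcript length and by library depth; mean ± SD), and ESR1, PGR and CDH1 were at or under 0.601 TPM. CDKN2A had 0 counts in 3 of 3 libraries, which allows up to 0.0437, 0.0354 and 0.0550 CPM (a count divided by library depth alone) from 3 counts, counting error only. Of the 6 line markers checked, ERBB2 among them, 2 reached 1 CPM in each library. The level of ERBB2 is not reported here. Of 3 endothelial and 4 fibroblast markers, 1 in each list reached 1 CPM in each library, the lists summed to 0.924 to 1.30 and 2.09 to 2.15 TPM, and DCN had 0 counts.

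Replication begins with ORC, which sits on origin DNA and, with CDC6 and CDT1, loads the ring of MCM2, MCM3, MCM4, MCM5, MCM6 and MCM7 before S phase; geminin (GMNN) binds CDT1 and blocks reloading. In S phase CDC45 and GINS join the ring to form the active helicase. Polymerase alpha with primase lays down primers, polymerase epsilon extends the leading strand and polymerase delta the lagging strand, and RFC loads PCNA, the ring that holds the polymerases on DNA. FEN1 trims the ends of Okazaki fragments and LIG1 seals them. Many of these genes are known targets of the E2F transcription factors, which the RB protein holds in check until cells commit to S phase. MDA-MB-231 cells divide in culture, and in bulk RNA a larger share of S-phase cells and more transcript per cell cannot be told apart.

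E2F-type sequence stands before some of these genes, and 4 stretches are shown. Among the genes with a match, only these 4 had a window in no annotated exon. The windows of the other matching genes shared 14 to 90 bases with an exon. The 4 come from 4 steps of the process: the helicase (MCM6), the brake on licensing (GMNN), primer synthesis (POLA1) and the clamp (PCNA). Each is 90 bases from RefSeq on GRCh38.p14, 5′ to 3′ on the gene's strand, upstream of the RefSeq start and in no annotated exon, with matches to the searched 8-base motif in capitals. The counts themselves were made on hg19, so these positions are not those of the counted reads.
MCM6, chr2:135876514-135876603, minus strand: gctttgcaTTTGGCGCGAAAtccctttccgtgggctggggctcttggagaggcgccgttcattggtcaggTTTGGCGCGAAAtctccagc
GMNN, chr6:24775292-24775381, plus strand: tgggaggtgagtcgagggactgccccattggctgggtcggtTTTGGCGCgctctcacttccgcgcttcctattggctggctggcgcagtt
POLA1, chrX:24693740-24693829, plus strand: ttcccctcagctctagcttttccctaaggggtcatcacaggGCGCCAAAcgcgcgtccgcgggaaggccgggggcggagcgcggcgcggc
PCNA, chr20:5126633-5126722, minus strand: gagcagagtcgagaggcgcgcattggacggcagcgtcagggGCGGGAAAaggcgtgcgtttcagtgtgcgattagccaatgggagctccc

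The motif was searched as TTTCCCGC, TTTCGCGC, TTTGCCGC and TTTGGCGC on both strands in the 250 bases before each start. MCM6 holds 4 matches in 2 overlapping pairs, whose first bases lie 152, 148, 90 and 86 bases before the start. In GMNN, POLA1 and PCNA the match begins 80, 137 and 59 bases before it. The RefSeq start used for PCNA lies upstream of the first exon of the transcript matched to the counted record, and the GMNN stretch lies inside the span of its matched transcript. A RefSeq promoter was matched for 37 of the 41 genes (MCM4, MCM5, GINS4 and POLD3 had no entry). A match was held by 13 of the 37 (35.1%), against 3.40% of 27305 genes. The 13 were CDT1, GINS2, GMNN, LIG1, MCM3, MCM6, MCM7, ORC3, PCNA, POLA1, POLA2, POLE4 and RFC3. The CCAAT box was present in 62.2% of the 37 against 37.0% of all genes, and the GC box GGGCGG in 78.4% against 46.2%. These are letters in a window, not binding measurements.

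All 41 genes were transcribed, each reaching 5 CPM in each library, a level met by 47.1% of the 22825 genes, whereas 1 CPM was met by 55.5%. Their median level was 58.1 TPM against 23.2 TPM over 12529 detected genes with a length, and 35 of the 41 lay above that median. PCNA was the highest at 403 ± 11.7 TPM, at percentile 97.1 of detected genes, and MCM9 the lowest at 4.53 ± 0.150 TPM, at percentile 15.4. The remaining 39 ran from ORC2 at 15.4 ± 1.11 to MCM3 at 309.8 ± 3.95 TPM.

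**Figure D1:**
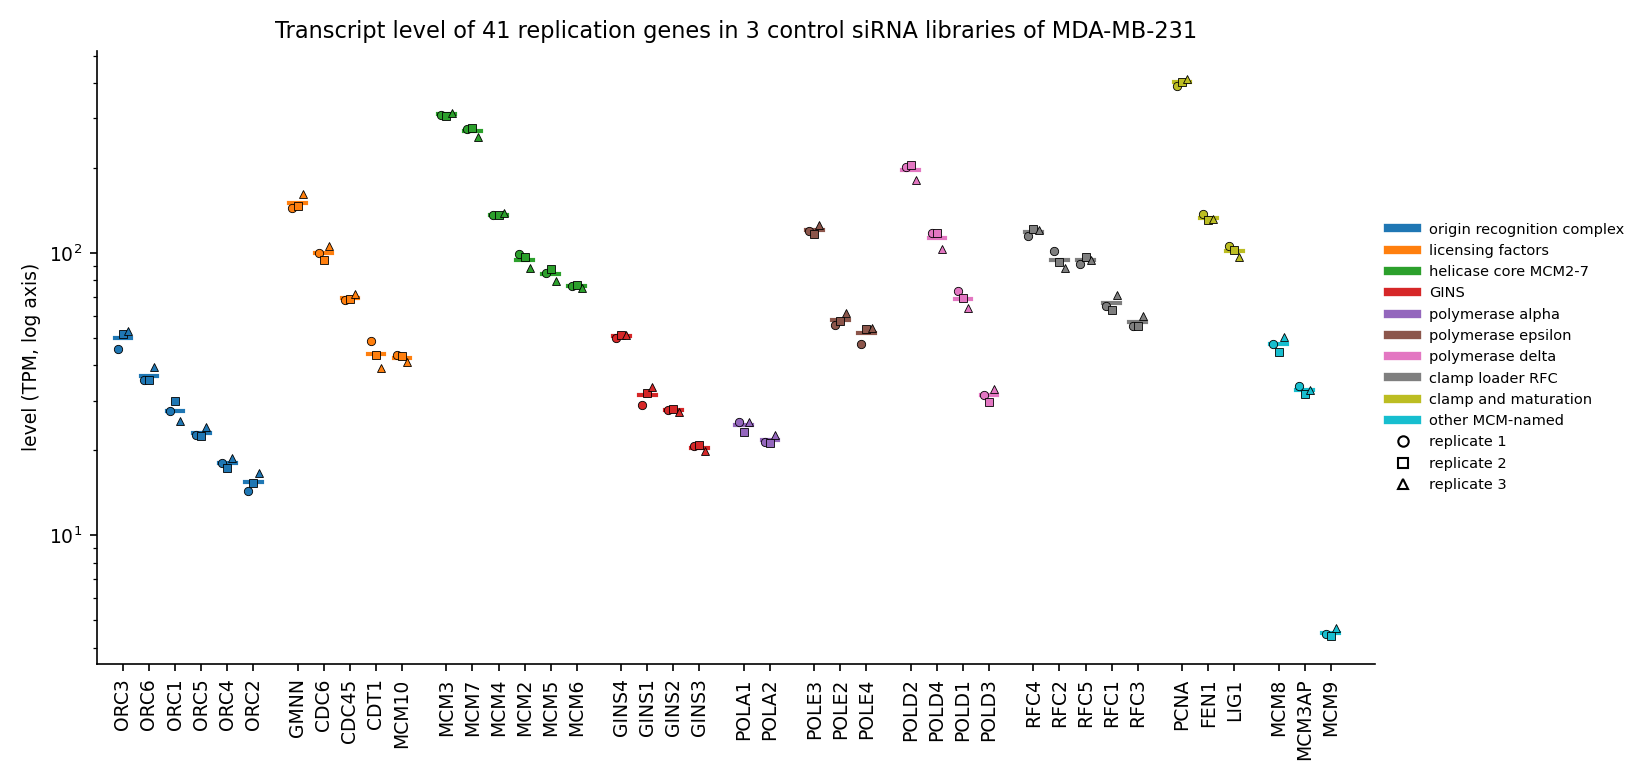
Level of each of the 41 genes in TPM on a log axis, grouped by role, with a symbol per library (circle, square and triangle for replicates 1, 2 and 3) and a bar at the mean. CDC45 and MCM10, which act in helicase activation, are drawn in the group of the licensing factors. The libraries lie close together for every gene, while genes of the same complex differ by up to 6.29-fold, as between POLD2 and POLD3, and MCM9 sits at 4.53 TPM, below all others.

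In the following, neighbours in a complex are called separated where their mean log2 ratio of TPM is at least 2 times its SD over the libraries and points the same way in 3 of 3. An exact sign-flip test over 3 libraries cannot give a two-sided p under 0.25, so no p is attached to the orders. A ratio within a library does not depend on library scaling, but it does depend on the length assigned to each transcript. A library's trend with GC content, given below, stays in the ratio of genes that differ in GC content. Equal TPM does not mean equal protein.

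The origin recognition complex had the lowest median subunit level of the complexes examined, at 25.4 ± 0.72 TPM. With records summed its median (32.1 TPM) lay above those of GINS (22.1 TPM) and polymerase alpha with primase (16.9 TPM). Per coding length it was 22.8 ± 1.59 against 24.3 ± 0.32 for polymerase alpha with primase, but ORC was the higher in replicate 3. ORC3, part of the core of the ring, was the highest, at 45.6, 51.5 and 52.9 TPM in replicates 1, 2 and 3. ORC6, the small subunit that resembles a transcription factor and joins the ring from outside, was at 35.4, 35.5 and 39.4 TPM. ORC1, the ATPase that is degraded after origins are licensed in human cells and so limits when ORC is complete, stood at 27.6, 29.8 and 25.4 TPM. These 3 did not overlap with each other across libraries, and replicate 3 was the highest for ORC3 and ORC6 but the lowest for ORC1. ORC5, another AAA+ subunit, was at 22.8, 22.5 and 24.2 TPM, and ORC4 at 18.02, 17.3 and 18.7 TPM. ORC2, which pairs with ORC3 in the core, was the lowest at 14.4, 15.3 and 16.6 TPM. ORC3 exceeded ORC2 3.24-fold (± 0.11), and 4 of the 5 neighbouring pairs were separated; ORC1 and ORC5 were not, at a log2 ratio of 0.25 ± 0.17. This order rests on length. The matched ORC4 transcript is 6710 bases long with a coding length of 1308, and per coding length ORC4 was the highest and ORC1 the lowest, with ORC3 over ORC2 reduced to 1.52-fold. There ORC1 was not separated from ORC5, at a log2 ratio of 0.04 ± 0.17 for ORC5 over ORC1. In CPM the lowest subunit was ORC5, and ORC3 and ORC4 were no longer separated.

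Among the licensing factors GMNN was the highest, at 144, 147 and 161 TPM (151 ± 9.30). CDC6, the ATPase that ORC recruits to load MCM, was at 100.1, 94.2 and 105 TPM. CDT1, its partner in loading and the target of geminin, was at 48.8, 43.7 and 39.03 TPM. The levels of these 3 genes did not overlap, and replicate 3 held the highest value for GMNN and CDC6 and the lowest for CDT1. The GMNN to CDT1 ratio was accordingly 2.95, 3.36 and 4.13 (3.48 ± 0.60), highest in replicate 3. It was 3.54 per coding length and 1.36 in CPM, so the excess of the inhibitor's transcript over that of its target kept its direction and lost most of its size without a length correction. The GMNN transcript has 43.6% GC and the CDT1 transcript 64.9%, and the libraries differed in their trend with GC content, as given below. Whether the change of the ratio between libraries goes with that trend was not tested. CDC6 exceeded ORC1, which it contacts on DNA, 3.65-fold (± 0.50), but 2.14-fold with the longest transcript of each.

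Of the factors that turn the loaded ring into a helicase, CDC45 stood at 68.02, 68.98 and 71.4 TPM and MCM10, which is needed for helicase activation and DNA unwinding, at 43.7, 43.1 and 41.2 TPM. CDC45 was higher in every library, 1.63-fold (± 0.09), but only 1.07-fold in CPM. The files name CDC45 by its current symbol.

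The helicase ring showed a wide range for proteins that assemble in equal numbers. MCM3 (Entrez 4172) was the highest at 309, 306 and 314 TPM, and MCM7 (Entrez 4176) followed at 276, 276 and 259 TPM. Together these 2 made up most of the ring's transcripts, at 31.9% ± 0.89 and 27.8% ± 0.62 of the summed TPM. MCM4, which forms a subassembly with MCM6 and MCM7 that has helicase activity by itself, was at 136, 136 and 138 TPM. MCM2, which also binds histones, was at 98.8, 96.5 and 88.3 TPM. MCM5, its neighbour at the gate of the ring, was at 85.1, 87.5 and 79.7 TPM, and MCM6 was the lowest at 76.6, 77.1 and 75.4 TPM. The ranges of the 6 subunits did not overlap, and replicate 3 was the lowest for MCM2, MCM5, MCM6 and MCM7 and the highest for MCM3 and MCM4. All 5 neighbouring pairs were separated, and MCM3 exceeded MCM6 4.04-, 3.97- and 4.16-fold (4.06 ± 0.10).

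The leading order MCM3, MCM7, MCM4 was the same by transcript length, longest transcript, coding length and CPM. MCM3 over MCM6 was 3.35-fold per coding length and 3.48-fold in CPM, where MCM5 and MCM6 were no longer separated. Per coding length MCM3 and MCM7 were not separated either. Nor was MCM6, the lowest there, separated from MCM2, at a log2 ratio of 0.12 ± 0.07 for MCM2 over MCM6. With each gene's longest transcript MCM5 and not MCM6 was the lowest. MCM7 shares 13.3% of its counted transcript with exons of AP4M1 on the other strand, and MCM2 30.7% with the antisense gene AC023593.1. Whether reads were assigned by strand is not given in the sources used here, so reads of such partners cannot be told apart. The AP4M1 record itself held 1527, 1875 and 940 counts against 23568, 29517 and 17457 for MCM7.

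GINS, the complex of GINS1, GINS2, GINS3 and GINS4 that links the MCM ring to CDC45 and polymerase epsilon, had a median subunit level of 29.6 ± 1.13 TPM. GINS4 was the highest at 50.03, 51.2 and 51.3 TPM. GINS1 was at 28.9, 32.02 and 33.6 TPM and GINS2 at 27.7, 28.02 and 27.4 TPM, and these 2 were not separated, although GINS1 was the higher in each library. GINS3 was the lowest at 20.7, 20.9 and 19.9 TPM, below every value of the other subunits. GINS4 over GINS3 was 2.48 ± 0.09, and the same 2 subunits were at the ends by longest transcript (4.56-fold), coding length (6.31-fold) and CPM (5.52-fold). The MCM ring exceeded GINS 3.91-fold (± 0.22) by median subunit TPM but 1.16-fold (± 0.05) per coding length, the coding parts of GINS transcripts being short: 555 of 2673 bases in GINS2 and 588 of 3249 in GINS1. Antisense genes overlap 30.2% of the GINS4 transcript and 22.8% of the GINS3 transcript.

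**Figure D2:**
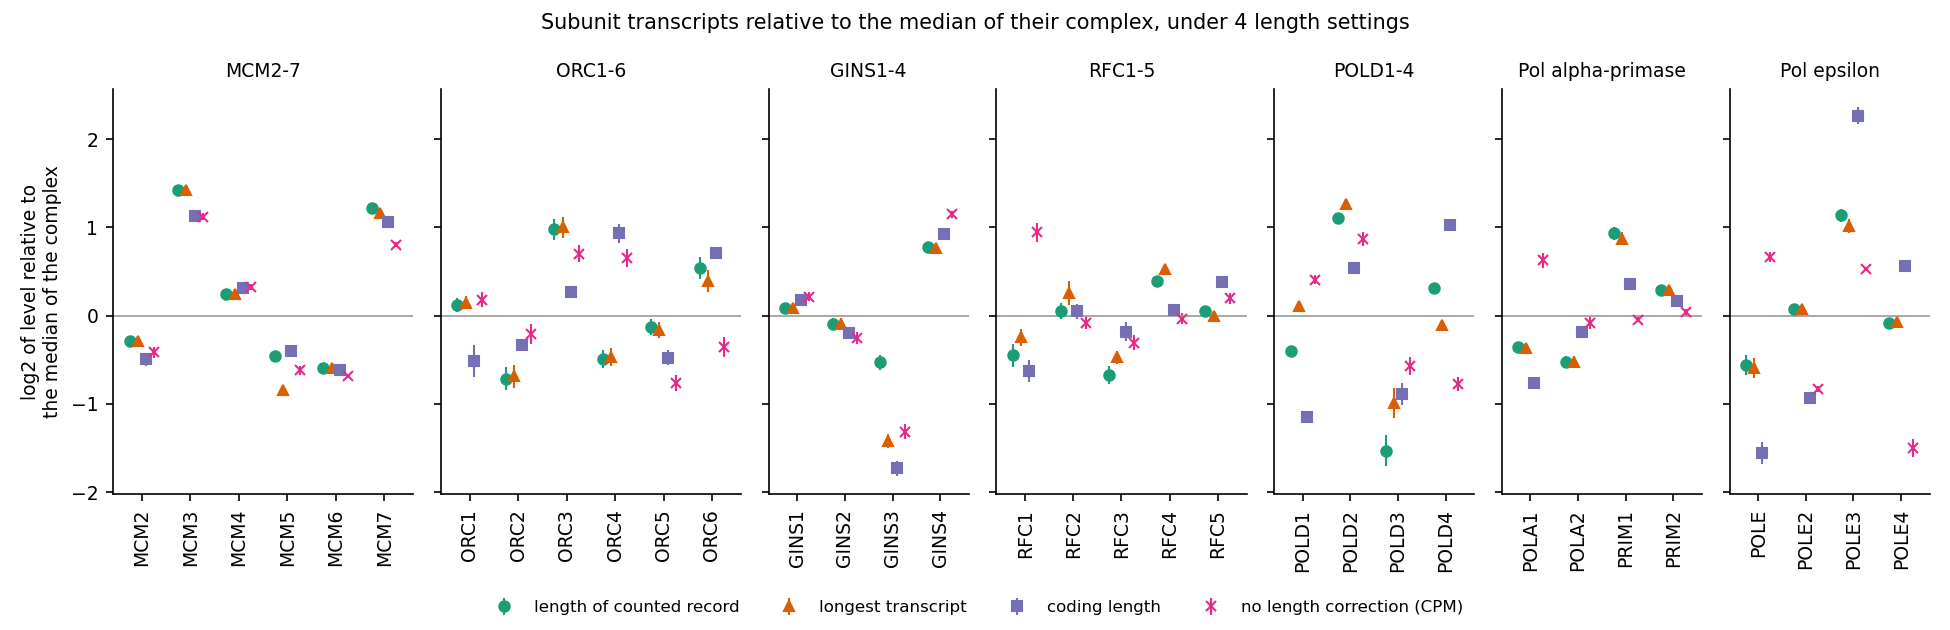
Each subunit's level relative to the median of its complex in log2 units, for 7 complexes and with 4 ways of treating length (circles, length of the counted record; triangles, longest transcript; squares, coding length; crosses, CPM without length); points are means and bars are SD over 3 libraries. MCM3 and MCM7 lie above the ring's median in each setting and GINS4 above that of GINS, whereas RFC1, POLE and ORC4 change side with the setting.

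Polymerase alpha, the enzyme that starts each new strand, was among the scarcer complexes. Its catalytic subunit POLA1 was at 25.2, 23.2 and 25.2 TPM and its regulatory subunit POLA2 at 21.5, 21.3 and 22.6 TPM, POLA1 being the higher in each library. The partner primase subunits lay higher, PRIM1 at 58.7, 61.9 and 59.4 TPM and PRIM2 at 39.6, 38.5 and 36.9 TPM. PRIM1 exceeded POLA2 2.76-fold (± 0.14), with 3 of 3 neighbouring pairs separated. Per coding length PRIM1 over POLA2 was 1.46, and POLA2 was above POLA1, separated at a log2 ratio of 0.58 ± 0.05. In CPM POLA1 led, its transcript being 5440 bases long against 1393 for PRIM1, and PRIM1 over POLA2 was 1.03, the pair not being separated. Another protein-coding gene in the annotation, AP000944.2, covers 53.7% of the POLA2 transcript on the same strand.

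For polymerase epsilon, the histone-fold subunit POLE3 was the highest at 120.1, 117 and 125 TPM. POLE2, the subunit that joins GINS, was at 55.8, 57.3 and 61.3 TPM, and POLE4, the partner of POLE3, at 47.7, 54.03 and 54.5 TPM. The catalytic subunit POLE was at 38.1, 36.3 and 37.01 TPM, below the other subunits in each library. POLE3, which also belongs to chromatin remodelling factors, exceeded its partner POLE4 2.33-fold (± 0.18), 3.25-fold per coding length and 4.09-fold in CPM. POLE3 over POLE was 3.26 ± 0.12, with 3 of 3 neighbouring pairs separated. This ratio was the one most altered by the treatment of length: it was 14.1 per coding length and 0.91 in CPM. Per coding length POLE4 also passed POLE2, exceeding it 2.83-fold.

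With the records used, polymerase delta had the widest range in TPM among the complexes examined. POLD2, the regulatory subunit that holds the complex together, was at 202, 205 and 182 TPM. POLD4, the smallest subunit, was at 118, 118 and 104 TPM, and the catalytic subunit POLD1 at 73.2, 69.2 and 63.8 TPM. POLD3, which carries a PCNA-binding motif and also serves translesion synthesis, was the lowest at 31.4, 29.7 and 33.00 TPM. The 4 subunits did not overlap, and replicate 3 was the lowest for POLD1, POLD2 and POLD4 and the highest for POLD3. POLD2 over POLD3 was 6.44, 6.92 and 5.50 (6.29 ± 0.72). It was 4.83 by longest transcript, 2.73 in CPM and 2.71 per coding length, where POLD4 led and POLD1 was the lowest. Per coding length POLD1 was not separated from POLD3. The POLD4 value is uncertain, since the protein-coding gene AP003419.1 covers 70.8% of its counted transcript on the same strand, and the POLD1 transcript shares 12.4% with AC020909.1.

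The catalytic subunits of the replicative polymerases were ordered POLD1 over POLE (1.85 ± 0.11) over POLA1 (1.52 ± 0.05 for POLE over POLA1), the same way in each library. Per coding length these ratios were 1.68 and 1.40. In CPM POLE, whose transcript is the longest of the 3, exceeded POLD1 (POLD1 over POLE 0.813).

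The clamp loader was the most even complex in TPM, with RFC4 over RFC3 at 2.10 ± 0.10. RFC4 was at 115, 121 and 120.2 TPM. RFC2 was at 102, 92.8 and 88.6 TPM and RFC5 at 91.3, 96.4 and 94.6 TPM, and these 2 were not separated, RFC2 being the higher in 1 of 3 libraries. RFC1, the large subunit that is exchanged for other proteins in alternative clamp loaders, was at 65.1, 62.9 and 71.02 TPM, and RFC3 at 55.3, 55.2 and 60.02 TPM. All of the small subunits except RFC3 thus lay above the large one in TPM. In CPM the order was inverted for RFC1, which led with 134, 131 and 145 CPM, its transcript being 4886 bases long. RFC4 over RFC3 came to 1.18-fold per coding length and 1.21-fold in CPM. No length was matched to the RFC5 record, for which the median of its complete coding transcripts (2052 bases) was used. With the median over all of its annotated transcripts (681 bases, under its coding length of 1020) RFC5 would lead the complex, 4.996-fold above RFC3.

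PCNA (Entrez 5111) was at 391, 403 and 415 TPM, FEN1 (Entrez 2237) at 137, 131 and 132 TPM and LIG1 (Entrez 3978) at 106, 102 and 97.1 TPM. The 3 genes kept this order in every library without overlap. PCNA exceeded FEN1 3.02-fold (± 0.15), LIG1 3.97-fold (± 0.29) and the polymerase it serves, by POLD1, 5.89-fold (± 0.58). In CPM these were 1.77, 1.58 and 2.30, and per coding length PCNA over POLD1 was 9.75. FEN1 over LIG1 was 1.31 ± 0.04 but 0.890 in CPM and 2.15 per coding length. The PCNA count may include reads of other loci: an antisense gene, PCNA-AS1, had a record with 2625, 3442 and 1966 counts beside 15182, 19578 and 12722 for PCNA, and 3 pseudogenes are named for PCNA in the annotation, of which PCNAP1 had a record with 0 counts in each library. Pseudogenes are likewise annotated for POLD2, FEN1, RFC3 and RFC5, and how reads with several hits were handled is not given in the sources used here.

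Across complexes, the MCM ring had a median subunit level of 116 ± 2.19 TPM, RFC 90.9 ± 2.11, polymerase delta 91.0 ± 6.34, polymerase epsilon 55.1 ± 3.11 and polymerase alpha with primase 31.4 ± 0.85 TPM. The loaded ring's transcripts thus exceeded those of its loader ORC 4.56-fold (± 0.11) and those of polymerase alpha-primase 3.68-fold (± 0.07), in every library. Per coding length these ratios were 3.68 and 3.44.

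The rule also takes 3 genes that carry the MCM name but are no part of the ring. MCM8, a helicase subunit in homologous recombination, was at 47.5, 44.5 and 50.6 TPM and its partner MCM9 at 4.47, 4.41 and 4.70 TPM. MCM8 was higher 10.5-fold (± 0.37), and 11.2-fold per coding length and 8.21-fold in CPM, the most uneven in TPM of the pairs described here. MCM3AP, which encodes GANP, a scaffold of the mRNA export complex named for its binding to MCM3, was at 33.7, 31.7 and 32.7 TPM. Its antisense gene MCM3AP-AS1 overlaps 20.01% of the transcript and had 460, 506 and 343 counts against 6030, 7098 and 4631.

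A gene can have several transcript records in the tables, and 22 of the 41 genes did, with 77 named records over all 41. The largest record that carries the gene's name was used. ORC2, ORC6, POLD3 and POLD4 each also had a record listed without a gene name that was slightly larger, at 100.02% to 102.2% of the used one. That of POLD3 was also shorter than the used one, at 2122 against 3821 bases, so its count per length was higher. For 15 of the 22 the lowest record held 90% or more of the count of the largest, and in 7 it did not. MCM9 had 623, 768 and 517 counts in its record of 4822 bases and 246, 291 and 182 in the other, 37.7% as many. ORC5 had 1287, 1593 and 1080 counts against 762, 912 and 582 (57.0%), and RFC3 had 3834, 4794 and 3292 against 2616, 3186 and 2207 (67.2%). The other 4 were POLD4 (82.1%), GINS3 (85.2%), ORC4 (86.2%) and GMNN (88.3%). Since most records of a gene held nearly equal counts, a read appears to be counted in each record it touches, and these shares are not isoform fractions.

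**Figure D3:**
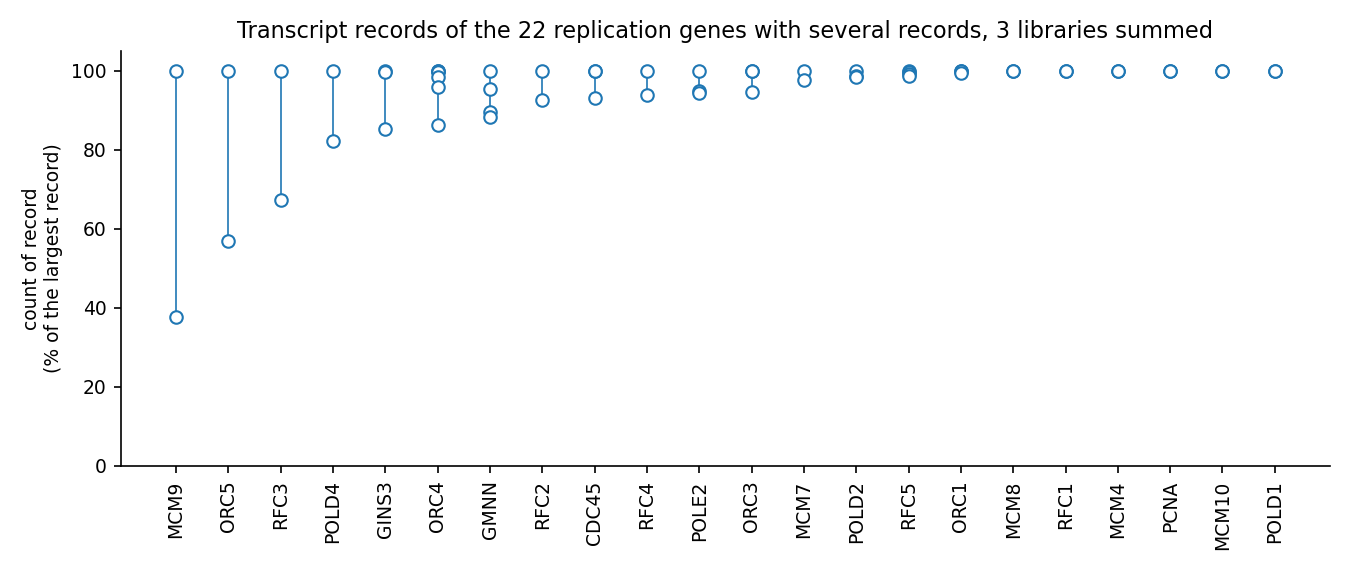
Count of each transcript record as a percentage of the gene's largest record, 3 libraries summed, for the 22 genes with several records. MCM9, ORC5 and RFC3 have a record at 37.7%, 57.0% and 67.2% of their largest, and 15 genes have none under 90%.

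The libraries differed little in these genes, and whether most varied by more than counting noise depended on how read pairs were counted. Between the highest and lowest library the CPM of the 41 genes differed by 1.003-fold (MCM3) to 1.27-fold (CDT1), with a median of 1.085-fold, against 1.11-fold over 14466 genes tested and 1.085-fold over genes with a mean count of 1000 or more. In an edgeR fit of 1 common level with counting noise alone (deviance against a chi-square, Benjamini-Hochberg adjustment over all genes, called at an adjusted p under 0.05), 31 of the 41 varied (75.6%). The background was high: 52.9% of all genes tested were called, and 68.2% of those with a mean count of 1000 or more, where 77.5% of the 40 replication genes at that depth were. Both mates of a read pair appear to have been counted, as genes with exactly 2 counts outnumbered those with 1 (712 against 484 in replicate 1). With each pair counted once, approximated by dividing the deviance by 2, 18 of the 41 varied (43.9%) against 28.4% of all genes and 42.6% of the deep ones. When a coefficient of variation of 0.05 between cultures was allowed, 0 varied in edgeR, against 1.14% of all genes. At an unadjusted p under 0.05 there was then 1 of the 41 (2.44%), against 10.6% of all genes. The count was 30, 31 and 32 with DESeq2 size factors, no filter and records summed, where 52.8%, 44.2% and 62.0% of all genes were called. The 10 genes not called were CDC45, GINS2, GINS3, GINS4, MCM3, MCM4, MCM9, ORC4, ORC5 and POLA2.

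By role, variation was called in 4 of 6 MCM ring genes, 4 of 6 ORC genes, 1 of 4 GINS genes and 5 of 5 RFC genes. It was called in 4 of 4 polymerase delta genes, 3 of 3 polymerase epsilon genes and 1 of 2 polymerase alpha genes. Of CDC6, CDT1, GMNN, CDC45 and MCM10 it was called in 4 of 5. It was called in 3 of 3 of PCNA, FEN1 and LIG1, and 2 of 3 of MCM8, MCM9 and MCM3AP. With pairs counted once the numbers were 3, 2, 1, 2, 3, 1, 0, 3, 2 and 1. Whether the roles differ in this was not tested.

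CDT1 varied the most of the 41, at 66.7, 60.4 and 52.7 CPM (edgeR, adjusted p = 8.54e-21), lowest in replicate 3. ORC1 was at 36.8, 40.1 and 33.4 CPM (adjusted p = 8.84e-09), also lowest in replicate 3. POLD1 was at 107, 102 and 91.6 CPM, POLD2 at 142, 145 and 126 CPM and POLD4 at 45.7, 46.2 and 39.7 CPM, each lowest there. In the other direction ORC3 was at 48.2, 54.9 and 55.2 CPM (adjusted p = 8.39e-09) and GMNN at 76.6, 79.1 and 84.9 CPM (adjusted p = 9.36e-06), both lowest in replicate 1. GINS1 was at 39.7, 44.3 and 45.5 CPM (adjusted p = 2.50e-06), also lowest there. These p-values rest on counts of both mates. With pairs counted once the edgeR adjusted p was 5.41e-10 for CDT1, 0.000286 for ORC1, 0.000279 for ORC3, 0.00718 for GMNN and 0.00393 for GINS1. With a coefficient of variation of 0.05 allowed it was 0.192, 0.487, 0.632, 0.843 and 0.687 in the same order. Without replicate 3, 16 of the 41 varied, against 22 without replicate 1 and 23 without replicate 2 (24.2%, 37.8% and 39.2% of all genes).

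These deviations moved with base composition. The GC content of the 41 transcripts ran from 37.7% (ORC4) to 64.9% (CDT1), with a median of 47.2% against 49.3% over all genes tested. Spearman's rho between GC content and a gene's deviation from its own mean was 0.68 in replicate 1, 0.45 in replicate 2 and -0.80 in replicate 3 over the 41 genes. Over 14227 genes it was 0.43, 0.26 and -0.54. All points in a panel share a library, and the 3 deviations of a gene sum to 0, so these values only describe the libraries. Of the 17 genes with 50% GC or more, replicate 3 was the lowest library for 12 and the highest for 3, with a median deviation of -0.08 in log2 units. Of the 24 others it was the lowest for 3 and the highest for 16, with a median of 0.04. The counts were the same with DESeq2 size factors in place of TMM.

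**Figure D4:**
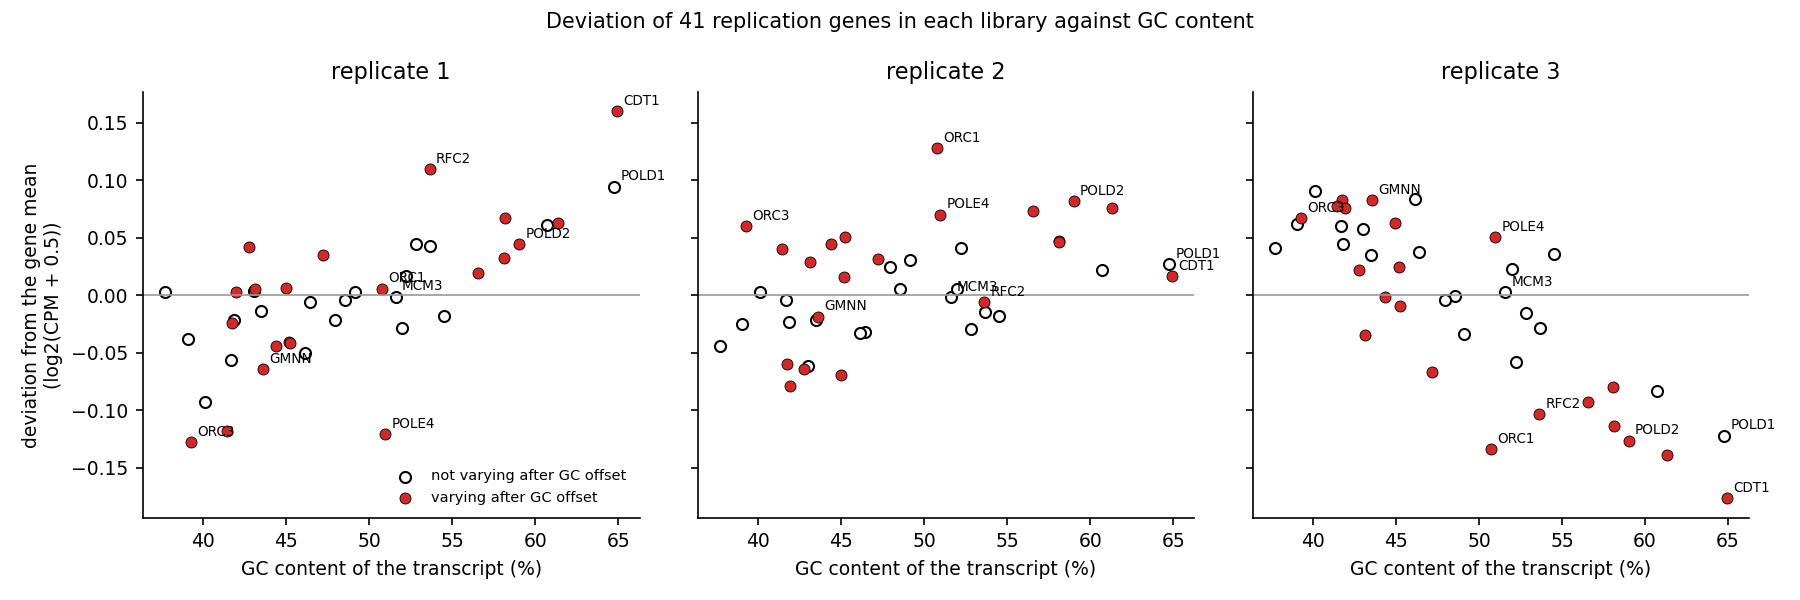
Deviation of each of the 41 genes from its mean over the libraries, in log2(CPM + 0.5), against the GC content of its transcript, a panel per replicate; filled points are the 21 genes that still varied after an offset for GC content. The points rise with GC content in replicate 1 and fall in replicate 3, where CDT1, the most GC-rich of the 41, is the lowest point.

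With a library offset fitted to GC content over all genes, 21 of the 41 varied (51.2%) against 39.4% of all genes and 49.3% of the deep ones. With that offset and pairs counted once, 10 did (24.4%) against 14.7% and 21.5%. The 10 were CDC6, CDT1, MCM2, MCM5, MCM6, ORC1, ORC3, POLD2, POLE4 and RFC2. CDT1 and ORC1 thus stayed past the threshold (edgeR, adjusted p = 0.00655 and 0.000983), while POLD1, POLD4, LIG1, GMNN and MCM7 did not (adjusted p = 0.494, 0.325, 0.682, 0.346 and 0.141). RFC2, at 72.7, 67.04 and 62.6 CPM, and POLE4, at 25.1, 28.7 and 28.3 CPM, also stayed (adjusted p = 0.00783 and 0.0344). RFC2 was highest and POLE4 lowest in replicate 1.

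Genes that work beside these 41 were read from 5 further lists, all of whose members reached 1 CPM in each library. Their counts of varying genes stand against the 52.9% of all genes called, or 68.2% of the deep ones, and with pairs counted once against 28.4% and 42.6%. The factors of helicase activation and the fork (14 genes) had a median of 39.95 TPM. They were led by the single-strand binding subunits RPA1 at 150.3 ± 1.78 and RPA2 at 106 ± 2.53 TPM, and the lowest was TICRR, the treslin gene that helps load CDC45 (C15orf42 in the files), at 14.03 ± 0.496 TPM. Of these genes 10 of 14 varied, and 4 with pairs counted once. The list of lagging strand processing, clamp unloading and chromatin assembly (12 genes) had a median of 44.3 TPM, with the histone chaperone ASF1B at 178 ± 6.91, the RNase H2 catalytic subunit RNASEH2A at 119.7 ± 4.58 and the PCNA unloader ATAD5 lowest at 13.9 ± 0.803 TPM; 9 varied, and 6 with pairs counted once.

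Nucleotide supply (6 genes) was the highest of the lists, with a median of 214 TPM. Thymidylate synthase TYMS was at 387 ± 8.21, the ribonucleotide reductase subunit RRM1 at 278 ± 8.91 and the dUTPase gene DUT lowest at 91.8 ± 3.63 TPM; 6 of 6 varied, and 3 with pairs counted once. The E2F and RB family with the S-phase cyclins (16 genes), the regulators of many replication genes, had a median of 28.2 TPM. The E2F partner TFDP1 was at 186 ± 5.23, cyclin A2 (CCNA2) at 113 ± 3.03 and E2F2 lowest at 6.76 ± 0.536 TPM; 13 varied, and 3 with pairs counted once. The translesion and repair polymerases (10 genes) were the lowest list, at a median of 19.1 TPM, under the 23.2 TPM of detected genes. MAD2L2, a subunit of polymerase zeta, was at 78.5 ± 8.53, POLH at 40.1 ± 1.10 and POLI lowest at 4.19 ± 0.530 TPM; 9 varied, and 4 with pairs counted once.

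**Figure D5:**
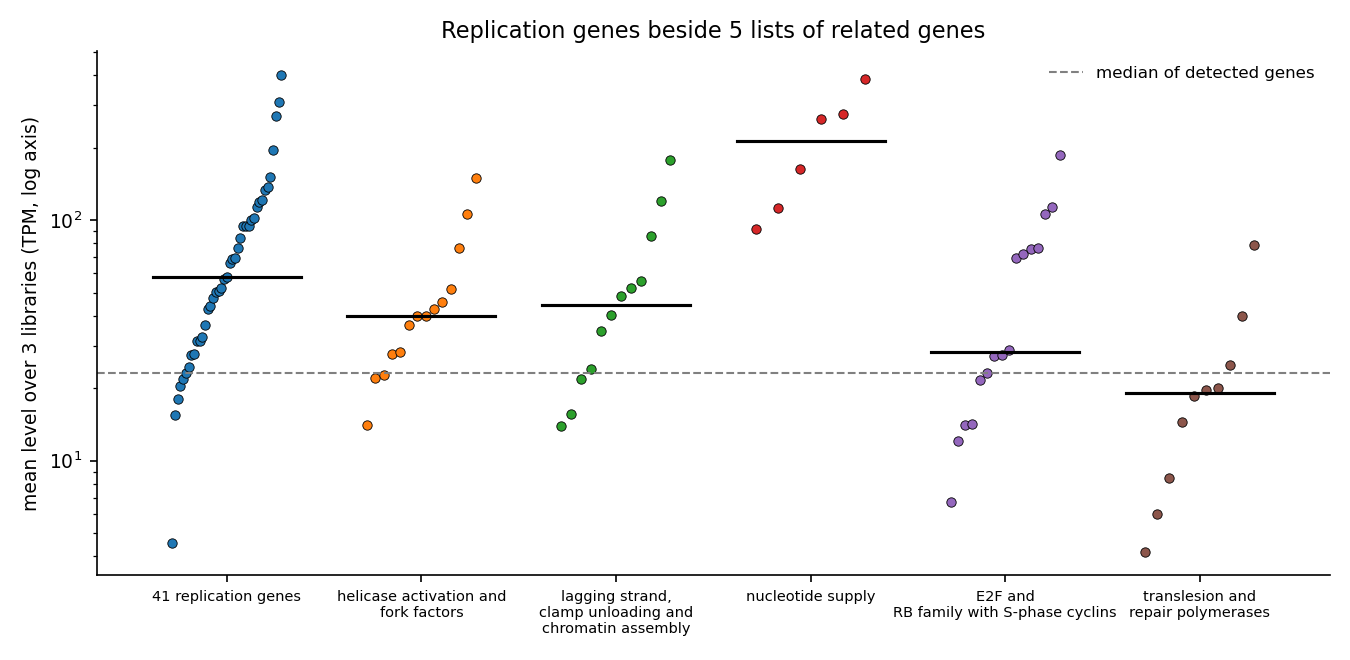
Mean level over 3 libraries in TPM, on a log axis, of the 41 replication genes and of 5 lists of related genes; a point is a gene, a bar the median of its list, and the dashed line the median of detected genes (23.2 TPM). The replication genes have a median of 58.1 TPM, the nucleotide supply genes lie above it as a list at 214 TPM, and the translesion and repair polymerases lie below the dashed line at 19.1 TPM.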

How the data were processed

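Raw read counts per RefSeq transcript record were deposited by the authors for 3 control siRNA libraries. The submitters' processing notes name FastQC, TopHat2, Cufflinks and hg19; versions, the counting tool, strand and the treatment of reads with several hits are not given in the sources used here. Libraries were TruSeq, read as pairs of 100 bp, per the labels.

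A gene's count was its largest named record (or largest record where none was named), copies of a record being summed. Of 42269 records, 6937 carried no gene name; 6318 were matched by accession and 619 were left out (0.952%, 0.959% and 0.944% of totals). TPM used the length of the counted record, matched in GENCODE 29 (length found for 97.9% of genes with a count), or otherwise the median of the gene's complete coding transcripts. That rule replaced a planned median over all transcripts after the data were seen; among the 41 genes it touches RFC5. GC content came from the same transcripts.

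Counts were scaled by TMM in edgeR 4.0.16 (R 4.3.3), filtered with filterByExpr without groups, and tested for variation with dispersion 0. On simulated counts for this comparison (14661 genes), 80%, 86% and 98% of genes changed 1.25-, 1.5- and 2-fold in a library were recovered, with 9 false calls. With a coefficient of variation of 0.05 drawn and allowed (14655 genes), 22%, 88% and 96% were recovered, with 8 false calls. The simulations drew no paired mates. The common coefficient of variation that edgeR estimated over 14466 genes was 0.0544. p-values measure only the spread between these libraries. DESeq2 1.42.0 gave alternative size factors. The alternatives were scaling, filter, pairs, spread, records, length, detection limit, GC offset (20 bins) and each library left out; the GC offset, coding length and other RFC5 length were chosen after seeing the data.

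The genes, lists and tests were chosen with earlier results of these data known. Named are all 41 genes, POLE, PRIM1, PRIM2, the 2 highest and the lowest member of each related list, and markers of the line and of other cells, of which 1 list is not reported here. Other genes named for overlaps were found in the annotation.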

Additional observations from a re-analysis of the deposited data

How the results depend on the processing

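The number of the 41 genes varying beyond counting noise (31) stayed within 1.5 times of this with DESeq2 size factors (30), no filter (31), summed records (32) and the GC offset (21), fell to 18 with pairs counted once, to 10 with pairs counted once and the GC offset, and to 0 with a coefficient of variation of 0.05 allowed. It ran from 16 to 23 with a library left out, lowest without replicate 3. Detection stayed at 41 of 41 at 5 CPM and without each library.

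The ratios between the subunits highest and lowest in TPM (MCM3 over MCM6, ORC3 over ORC2, GINS4 over GINS3, RFC4 over RFC3 and POLD2 over POLD3) depended on length. In CPM they were 3.48, 1.88, 5.52, 1.21 and 2.73, and per coding length 3.35, 1.52, 6.31, 1.18 and 2.71. Other subunits then stood at the ends of 3 complexes, whose full spans were 2.76 (ORC3 over ORC5), 2.37 (RFC1 over RFC3) and 3.13 (POLD2 over POLD4) in CPM, and 2.76 (ORC4 over ORC1), 2.02 (RFC5 over RFC1) and 4.54 (POLD4 over POLD1) per coding length. Several of these ends were not separated from their neighbours. In CPM these were ORC3 from ORC4, RFC3 from RFC2 and POLD4 from POLD3. Per coding length they were ORC1 from ORC5 and POLD1 from POLD3. With the longest transcript GINS4 over GINS3 was 4.56, POLD2 over POLD3 4.83 and the span of the MCM ring 4.80 (MCM3 over MCM5). Summing the records of a gene, which adds reads shared by records more than once, gave 9.55 for ORC3 over ORC2, 2.43 for RFC4 over RFC3 (full span 3.94, RFC5 over RFC3) and 18.7 for POLD2 over POLD3, and reversed GINS4 over GINS3 to 0.872, GINS3 having 3 records and GINS4 1. It put MCM7 above MCM3 1.72-fold, with a span of 6.99 over MCM6, and moved GMNN over CDT1 to 12.98, CDC6 over ORC1 to 1.22, PCNA over FEN1 to 6.04 and over LIG1 to 7.93. With a library left out the same 5 ratios ran from 4.004 to 4.10 (MCM), 3.18 to 3.28 (ORC), 2.43 to 2.52 (GINS), 2.04 to 2.14 (RFC) and 5.97 to 6.68 (polymerase delta). Of 44 named levels, 41 moved by more than their SD with the longest transcript, which also changes the scale of TPM as a whole.

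No paired analysis was possible because the libraries form 1 group. Counts of 517 or more per library leave little counting error in the ratios between these genes. Beside the differences between libraries that error was not small for every gene, as 31 of the 41 were called varying beyond it. What limits the comparisons is the length assigned to each transcript, the libraries' trends with GC content, the number of libraries, and the unknown strand and multiple-hit handling.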
